A study of Homo sapiens with 4 samples.

Results

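The genes described here encode 5 keratins (KRT7, KRT8, KRT18, KRT19 and KRT80), vimentin (VIM) and the 3 lamin genes (LMNA, LMNB1 and LMNB2). They were taken by symbol from a table of 57820 genes, in which each of the 9 symbols had 1 row. They were measured by RNA sequencing in 786-0 cells, an established human renal carcinoma line. There were 2 libraries from cells with a short hairpin RNA against GLUD1 (shGLUD1) and 2 libraries from cells with a non-targeting hairpin (shNT). GLUD1 is the mitochondrial glutamate dehydrogenase. All 4 libraries came from cells deprived of amino acids for 12 h in both groups. The labels give neither the hairpin sequence nor whether replicates were separate cultures or the lines were clones. The p-values therefore rest on the spread among these 4 libraries, and that spread may be technical.

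Intermediate filaments are the rope-like elements of the cytoskeleton. Keratins assemble only as pairs of a type I and a type II protein, so KRT8 (type II) is usually found with KRT18 (type I), and both are typical of simple epithelia. Vimentin is the type III filament protein of mesenchymal cells and assembles with itself; many renal carcinoma cells carry it together with keratins. Lamins form the meshwork under the inner nuclear membrane: LMNA gives the A-type lamins A and C, and LMNB1 and LMNB2 give the B-type lamins, which stay anchored to the membrane by a farnesyl tail.

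Values are TPM, transcripts per 1000000 transcripts, which are scaled by transcript length and by the total of each library, so levels can be compared between genes. TPM keep no read totals, so sequencing depth is unknown. GLUD1 TPM were 13.5 and 19.8 under the shGLUD1 label, against 18.1 and 17.4 in shNT (log2 fold change -0.11, limma adjusted p = 0.631; with rescaling as described next, -0.83, limma adjusted p = 0.00234). On TPM, GLUD1 was thus not lower in shGLUD1 replicate 2 than in either control, whereas rescaled values were 11.2 and 14.2 in shGLUD1 and 23.6 and 22.6 in shNT. The name shGLUD1 below refers to the libraries with that label. Most genes stood higher in shGLUD1 on TPM, with a median log2 fold change of 0.63 over the 12524 genes whose mean reached 1 TPM. Fold changes are therefore also given after median-ratio rescaling, by which the median gene shows no change. All are computed on log2(TPM + 1), so changes of low genes are understated. The renal and carcinoma markers PAX8 (5.18 and 7.48 TPM in shGLUD1, 8.07 and 8.75 TPM in shNT) and CA9 (64.3 and 72.4 TPM in shGLUD1, 22.1 and 23.99 TPM in shNT) were present. PTPRC, CD3E, VWF and CDH5, which mark leukocytes and endothelium, were at most 0.11 TPM in any library, and LYZ at most 0.21 TPM. The whole leukocyte and endothelial list summed to 209 and 242 TPM in shGLUD1 and to 159 and 146 TPM in shNT, nearly all of it CD68, a lysosomal protein also made outside leukocytes.

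In shGLUD1, vimentin and the B-type lamins rose, KRT7 fell, while KRT8, KRT80 and LMNA differed by less and by amounts that depended on the scaling. VIM averaged 3329 ± 604 TPM in shGLUD1 and 911 ± 28.4 TPM in shNT (SD, n = 2 each), a ratio of 3.66. LMNB1 averaged 15.05 ± 2.93 TPM in shGLUD1 and 1.69 ± 0.488 TPM in shNT, a ratio of 8.93, and LMNB2 97.3 ± 4.41 TPM in shGLUD1 and 32.9 ± 3.51 TPM in shNT, a ratio of 2.96. KRT7 averaged 41.3 ± 2.13 TPM in shGLUD1 and 103.6 ± 9.53 TPM in shNT, 2.51 times as high in shNT. Of the 8 members with a mean of at least 1 TPM, 6 were higher and 2 lower in shGLUD1 (limma, adjusted p under 0.05). One of the 2 lower, KRT18, reached that mean only through shNT, so the count is a description of the genes that passed. Among all genes tested 56.7% were higher and 7.77% lower (64.5% either way), so a higher TPM in shGLUD1 was common to most genes. After rescaling 3 were higher (VIM, LMNB1 and LMNB2) and 3 lower (KRT7, KRT18 and KRT80), beside 23.2% of all genes higher and 27.9% lower (51.1% either way). In bulk RNA, fewer cells with a transcript and less of it per cell cannot be told apart. TPM of the groups did not overlap in any of the 8, which was also so for 83.4% of all genes tested (69.9% with shGLUD1 higher and 13.5% with it lower).

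**Figure D1:**
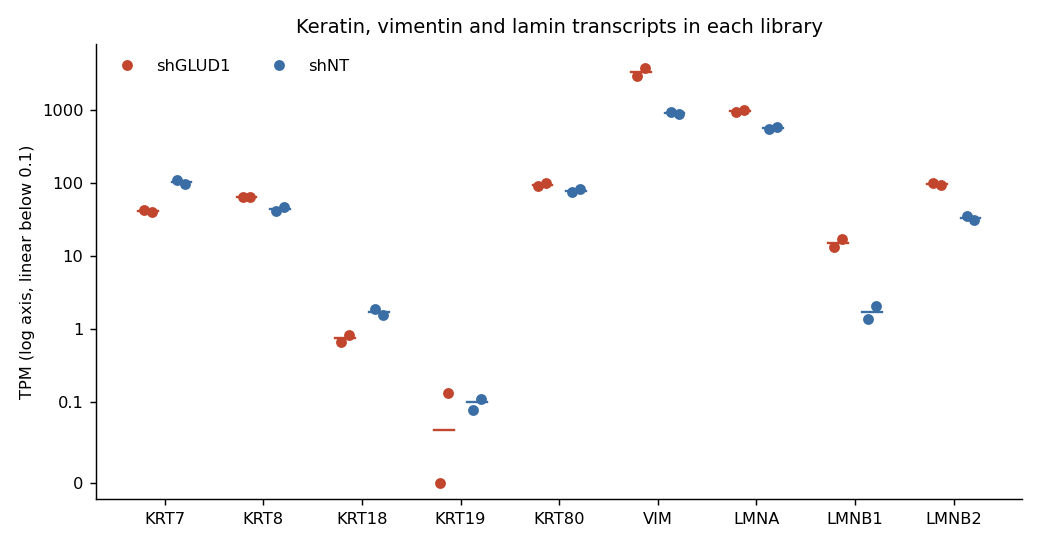
TPM of each gene (log axis, linear below 0.1 TPM) in the 2 shGLUD1 libraries (red, left) and the 2 shNT libraries (blue, right); points are libraries and bars are means. VIM reached 3756 TPM in shGLUD1 and 931 TPM in shNT, LMNB1 lay between 12.98 and 17.1 TPM in shGLUD1 and between 1.34 and 2.03 TPM in shNT, and KRT7 was lower in both shGLUD1 libraries.

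Vimentin was the most abundant of the 9 transcripts in every library. VIM (chromosome 10, 17228259 to 17237593 on GRCh38, plus strand) was at 2902 and 3756 TPM in shGLUD1, against 931 and 891 TPM in shNT. Both shGLUD1 libraries stood far above both controls. VIM rose by a log2 fold change of 1.86 (± 0.11 SE and adjusted p = 1.6e-06 by limma), and 1.09 after rescaling (± 0.16 SE and adjusted p = 0.000802 by limma). By level it ranked 57th and 33rd of all genes in the shGLUD1 libraries, against 173rd and 176th in the shNT libraries; by log2 fold change it ranked 391st of the 12524 genes tested. An antisense transcript that overlaps it, VIM-AS1, was at 5.29 and 7.31 TPM in shGLUD1 and at 2.11 and 2.04 TPM in shNT. No strand setting is stated in the sources used here, so reads of the overlap of 1727 bases cannot be told apart, although VIM-AS1 was listed at a small fraction of the VIM level.

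LMNB1 had the largest rise among the 8 tested members on both scalings. LMNB1 (chromosome 5, 126776623 to 126837020, plus strand) was at 12.98 and 17.1 TPM in shGLUD1, against 1.34 and 2.03 TPM in shNT. Its log2 fold change of 2.58 (± 0.24 SE and adjusted p = 1.6e-05 by limma) was the 30th highest of all genes tested, and was 1.98 after rescaling (± 0.20 SE and adjusted p = 0.000194 by limma). LMNB2 (chromosome 19, 2427638 to 2456996, minus strand), the other B-type lamin, was at 100.5 and 94.2 TPM in shGLUD1, against 35.4 and 30.5 TPM in shNT. It rose by 1.54 on the log2 scale (± 0.12 SE and adjusted p = 7.1e-06 by limma), rescaled 0.79 (± 0.14 SE and adjusted p = 0.00225 by limma). It overlaps TIMM13 on the same strand by 257 bases; TIMM13, a mitochondrial import chaperone, was at 135 and 137 TPM in shGLUD1 and at 228 and 217 TPM in shNT, a difference in the other direction.

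LMNA changed about as much as the median gene. LMNA (chromosome 1, 156082573 to 156140089, plus strand) was at 931 and 1002 TPM in shGLUD1, against 554 and 574 TPM in shNT, the second most abundant of the 9 in each library. The groups did not overlap, and LMNA rose on TPM by a log2 fold change of 0.78 (± 0.09 SE and adjusted p = 4.4e-05 by limma). Rescaled, it was 0.01 (± 0.13 SE and adjusted p = 0.935 by limma), whereas under quantile normalization it was 0.86 (limma adjusted p = 0.000481). Its call therefore rests on how the libraries are scaled.

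Ratios of TPM within a library are the same under any single factor per library, such as median-ratio rescaling, though not under quantile normalization. They differed between groups for each pair of lamins. The ratio of LMNB1 to LMNA was 0.0139 and 0.0171 in shGLUD1, against 0.00242 and 0.00354 in shNT, which is 5.28 times as high in shGLUD1 (log2 difference 2.40). The ratio of LMNB2 to LMNA was 0.108 and 0.094 in shGLUD1, against 0.064 and 0.053 in shNT, or 1.73 times as high (0.79 on the log2 scale). The ratio of LMNB1 to LMNB2 was 0.129 and 0.182 in shGLUD1, against 0.0378 and 0.0667 in shNT (log2 difference 1.61). Thus both B-type lamins were higher relative to LMNA in both shGLUD1 libraries, and LMNB1 relative to LMNB2. Under quantile normalization the fold changes kept that order but lay closer together, at 1.88 for LMNB1, 1.13 for LMNB2 and 0.86 for LMNA. An exact two-sided permutation test of each ratio gave p = 0.333, the smallest that 2 libraries against 2 allow.

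The start regions of the 3 genes that rose on both scalings are shown as RefSeq annotates them, to give the sequence context of these genes. RefSeq promoter windows (GRCh38.p14, from 250 bases before to 50 bases after a start) matched 5 of the 9 genes, with 8 windows in all. Those below are chr10:17227991-17228290 on the plus strand for VIM, chr5:126776886-126777185 on the plus strand for LMNB1 (the second of its 2 listed starts, since the window of the first held no match to the motifs below) and chr19:2456910-2457209 on the minus strand for LMNB2. Each is written 5′ to 3′, and capitals mark matches on either strand to the GC box GGGCGG, the sequence CCAAT, the core promoter motif TATAAA, the AP-1 motif TGANTCA or the E-box CACCTG.
VIM: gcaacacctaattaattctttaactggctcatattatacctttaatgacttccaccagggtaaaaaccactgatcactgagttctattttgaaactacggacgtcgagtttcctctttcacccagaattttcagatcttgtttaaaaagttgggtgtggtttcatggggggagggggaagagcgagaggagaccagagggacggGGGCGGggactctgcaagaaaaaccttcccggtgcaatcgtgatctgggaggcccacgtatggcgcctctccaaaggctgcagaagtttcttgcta
LMNB1: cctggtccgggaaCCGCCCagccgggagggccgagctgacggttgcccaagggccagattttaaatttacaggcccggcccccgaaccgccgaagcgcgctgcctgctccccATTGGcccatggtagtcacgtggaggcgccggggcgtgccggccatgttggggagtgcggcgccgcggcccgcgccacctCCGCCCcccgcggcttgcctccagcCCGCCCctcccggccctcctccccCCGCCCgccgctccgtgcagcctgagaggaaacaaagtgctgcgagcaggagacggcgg
LMNB2: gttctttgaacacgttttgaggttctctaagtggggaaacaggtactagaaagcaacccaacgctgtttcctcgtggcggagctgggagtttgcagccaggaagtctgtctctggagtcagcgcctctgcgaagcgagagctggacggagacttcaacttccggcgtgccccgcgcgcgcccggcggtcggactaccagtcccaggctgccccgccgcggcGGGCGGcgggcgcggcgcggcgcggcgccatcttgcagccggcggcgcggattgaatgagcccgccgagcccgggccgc
A GC box was found once in the VIM window, starting 46 bases before the start, once in the LMNB2 window, 29 bases before it, and 4 times in the LMNB1 window, the nearest 9 bases before the start. The same motif was found in 45.0% of 35116 windows of that length. The LMNB1 window also held 1 CCAAT on the minus strand, 138 bases before the start, a motif found in 34.6% of windows. That window was chosen because it held matches, so its GC boxes and CCAAT cannot be weighed against these shares. The window of the other LMNB1 start, 126776623, held neither motif. No match to TATAAA (11.5% of windows), TGANTCA (7.71%) or CACCTG (20.6%) was found in the 3 windows shown. The table gives expression per gene, so which start was used was not measured.

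Among the 4 member keratins tested, KRT7 had the lowest fold change on both scalings. KRT7 (chromosome 12, 52232520 to 52252186, plus strand), a type II keratin of ducts and simple epithelia, was at 42.8 and 39.8 TPM in shGLUD1, against 110 and 96.9 TPM in shNT. Both shGLUD1 values were well under the shNT values. The log2 fold change was -1.31 (± 0.12 SE and adjusted p = 1.5e-05 by limma), the 128th lowest of 12524, where 1.78% of genes were lower by at least 1 log2 unit (10.0% after rescaling). It was -2.05 after rescaling (± 0.14 SE and adjusted p = 4.3e-05 by limma). KRT7 overlaps KRT86 on the same strand by 2887 bases and the antisense KRT7-AS on the opposite strand by 2401 bases. KRT86 was at most 8.39 TPM and KRT7-AS at most 0.35 TPM in any library. How reads of these overlaps were counted is not given in the sources used here. KRT80 (chromosome 12, 52168996 to 52192000, minus strand), a type II keratin found at cell borders, was at 90.5 and 99.0 TPM in shGLUD1, against 75.1 and 81.0 TPM in shNT. Its log2 fold change of 0.28 (± 0.11 SE and adjusted p = 0.0483 by limma) turned to -0.48 after rescaling (± 0.11 SE and adjusted p = 0.00765 by limma), so its direction depends on the scaling. Its TPM call was also lost without shGLUD1 replicate 2 (limma adjusted p = 0.141), shNT replicate 1 (0.304 as the adjusted p) or shNT replicate 2 (0.121 as the adjusted p), and with replicate number as a block (0.0677 as the adjusted p).

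KRT8 and KRT18, the usual partners, were listed at very different levels. KRT8 (chromosome 12, 52897187 to 52949954, minus strand) was at 64.1 and 64.1 TPM in shGLUD1, against 41.5 and 46.8 TPM in shNT (log2 fold change 0.53, SE 0.12, limma adjusted p = 0.00306). Rescaled, it was -0.22 and did not pass (± 0.13 SE and adjusted p = 0.176 by limma), and without shNT replicate 1 the TPM value narrowly failed to pass (0.45, limma adjusted p = 0.0506). KRT18 (chromosome 12, 52948871 to 52952901, plus strand) was at only 0.66 and 0.82 TPM in shGLUD1, against 1.87 and 1.54 TPM in shNT. It passed the filter of 1 TPM only through shNT, where it was higher, so a low value in shGLUD1 was built into its being tested. It was lower, at -0.64 on the log2 scale (± 0.25 SE and adjusted p = 0.0425 by limma), rescaled -1.04 (± 0.22 SE and adjusted p = 0.00457 by limma). The unrescaled call was lost without shGLUD1 replicate 1 (limma adjusted p = 0.069), shNT replicate 1 (0.2 as the adjusted p) or shNT replicate 2 (0.1 as the adjusted p). The ratio of KRT8 to KRT18 was 97.1 and 78.2 in shGLUD1, against 22.2 and 30.4 in shNT, 3.36 times as high in shGLUD1 (exact permutation p = 0.333). KRT19, a type I keratin of simple epithelia, was listed at 0 and 0.13 TPM in shGLUD1 and at 0.09 and 0.11 TPM in shNT; it was under the filter and was not tested, and no ratio to it could be formed in shGLUD1 replicate 1.

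Processed copies of both genes are spread through the genome, and this bears on the levels of the pair. Of all 50-base words in the principal KRT18 transcript, 31.8% also occur in GENCODE transcripts of other genes, namely 43 KRT18 pseudogenes. For KRT8 the share was 32.7%, in 37 genes that include 33 KRT8 pseudogenes. The 68 KRT18 pseudogenes in the table summed to 0.45 and 0.51 TPM in shGLUD1, against 0.08 and 0.24 TPM in shNT. The 50 KRT8 pseudogenes summed to 8.66 and 10.8 TPM in shGLUD1, against 6.51 and 5.80 TPM in shNT. The listed TPM of KRT18 and its copies, added together, stayed far under KRT8 in each library. Any reads that were left uncounted would be missing from that sum. KRT8 and KRT18 also overlap by 1084 bases on opposite strands. The counting of reads that fit several genes is not given in the sources used here, and its part in the low KRT18 level was not tested. No word of VIM, LMNA, LMNB1 or LMNB2 occurred in another gene, and 1.00% of those of KRT7 and 0.42% of those of KRT80 did.

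**Figure D2:**
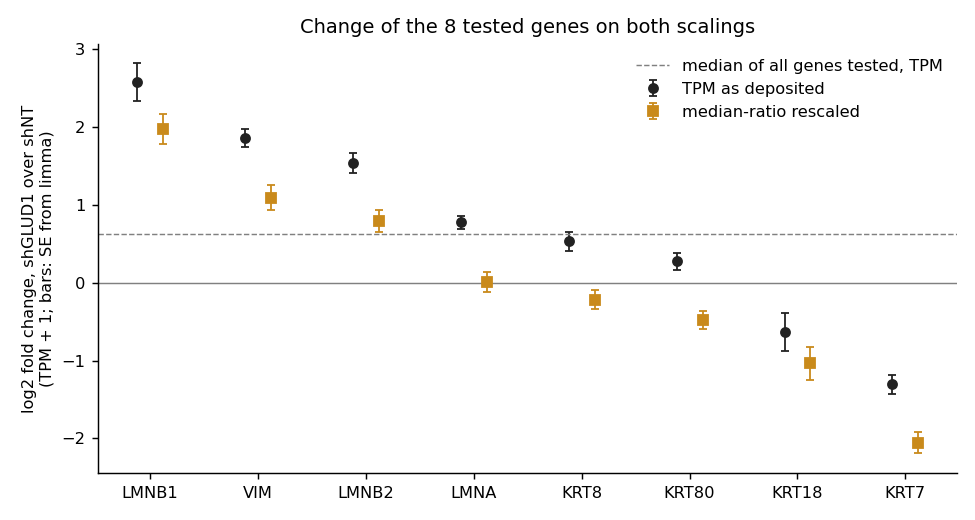
Log2 fold change of shGLUD1 over shNT for the 8 tested genes on TPM as deposited (black circles) and after median-ratio rescaling (orange squares), with SE from limma; the dashed line is the median of all genes tested, 0.63. LMNB1, VIM and LMNB2 are above 0 and KRT18 and KRT7 below 0 on both scalings, LMNA lies at 0.01 after rescaling, and KRT8 and KRT80 change side.

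The balance of keratin to vimentin transcripts changed in the same way in both shGLUD1 libraries. The 5 member keratins summed to 198 and 204 TPM in shGLUD1, against 229 and 226 TPM in shNT, while VIM rose. Their ratio to VIM was 0.0683 and 0.0543 in shGLUD1, against 0.246 and 0.254 in shNT, which is 4.11 times as high in shNT (log2 difference -2.04, exact permutation p = 0.333). Of the summed TPM of all 9 genes, VIM held 70.0% and 74.0% in shGLUD1, against 53.2% and 51.7% in shNT. KRT7 held 1.03% and 0.784% in shGLUD1, against 6.31% and 5.62% in shNT. LMNA held 22.5% and 19.8% in shGLUD1 and 31.6% and 33.3% in shNT, so its share was lower although its TPM was higher.

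Other keratin genes of the table were lower in shGLUD1 or did not pass. They were taken as all other type I and type II keratin genes, not by how they moved. Of 7 other type I keratins above the filter, 5 fell and none rose, with a list median of -1.10, and all 7 were lower after rescaling. Of 4 other type II keratins above the filter, 3 fell and none rose, with a list median of -0.82, and all 4 were lower after rescaling. The median of all genes was 0.63 on TPM, and 7.77% of all genes were lower, or 27.9% after rescaling. A filter on mean level can keep a gene that is high in shNT alone, though no tested gene of these lists had an shGLUD1 mean under it. These counts describe the genes that passed the filter. A further 21 type I and 19 type II rows were under the filter, none above 1.12 TPM in any library.

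KRT17, a type I keratin of basal and wound-edge epithelium, was the most abundant keratin in shNT. It was at 46.3 and 44.7 TPM in shGLUD1, against 208 and 231 TPM in shNT (log2 fold change -2.24, SE 0.11, limma adjusted p = 3.0e-07; rescaled -2.99). KRT16, a type I keratin of wounded epidermis, was at 4.45 and 2.91 TPM in shGLUD1, against 17.3 and 14.4 TPM in shNT (-1.86). KRT14, the type I keratin of basal cells, was at 10.5 and 11.1 TPM in shGLUD1, against 23.1 and 25.3 TPM in shNT (-1.10). All 3 stood lower in both shGLUD1 libraries with no overlap, as did 13.5% of all genes tested (83.4% did not overlap either way). In other genes occur 16.0% of the 50-base words of KRT17, 22.0% of those of KRT16 and 23.8% of those of KRT14, so reads may be split among them.

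The hair keratin genes KRT33B and KRT34 fell by log2 fold changes of -1.61 and -0.89, and so did KRT81 by -0.83, although 27.7%, 11.4% and 44.6% of their 50-base words, in that order, occur in other genes. KRT86, of whose words 33.3% occur in KRT81, was at 5.49 and 7.86 TPM in shGLUD1 and at 8.38 and 8.39 TPM in shNT (-0.31, limma adjusted p = 0.234). KRT78 and KRT79, type II keratins, had log2 fold changes of -0.88 and -0.82 (limma adjusted p = 0.0167 and 0.0046). KRT10 was at 13.2 and 15.7 TPM in shGLUD1 and at 11.8 and 11.97 TPM in shNT, and KRT15 at 31.0 and 29.0 TPM in shGLUD1 and at 24.3 and 24.4 TPM in shNT; neither passed on TPM (limma adjusted p = 0.214 and 0.0858). Both were lower after rescaling (-0.45 each). KRT78 lost its call without shGLUD1 replicate 2 (limma adjusted p = 0.104) or shNT replicate 1 (0.144 as the adjusted p). KRT79 lost it without shNT replicate 1 (0.0501 as the limma adjusted p) or replicate 2 (0.0755 as the adjusted p), and KRT34 without shNT replicate 1 (0.0622 as the adjusted p).

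**Figure D3:**
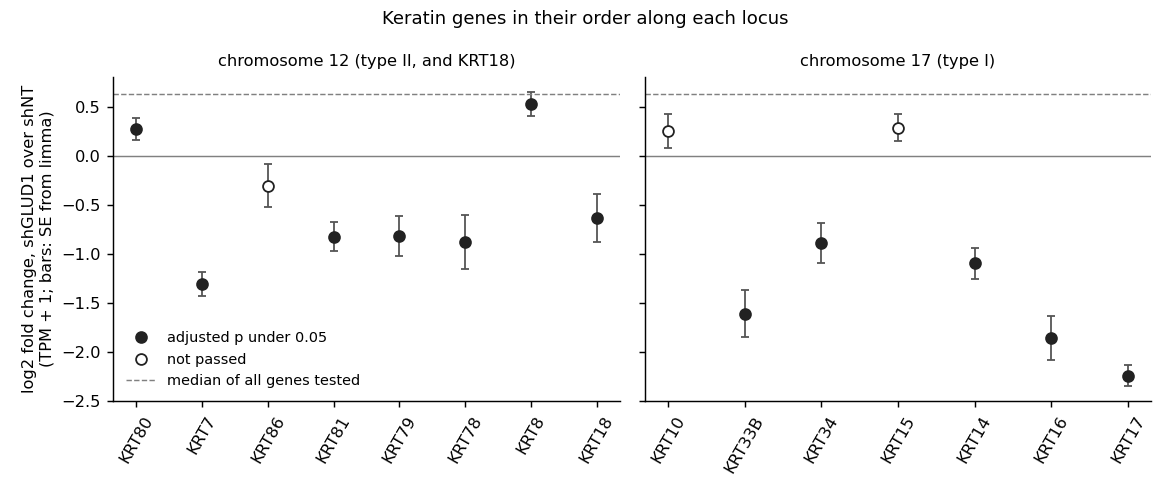
Log2 fold change of shGLUD1 over shNT, with SE from limma, for each keratin tested, in its order along chromosome 12 (left) and chromosome 17 (right); filled points passed at an adjusted p under 0.05 on TPM, and the dashed line is the median of all genes tested. KRT80 and KRT8 lie above 0 on TPM among lower neighbours, KRT7 and KRT17 are lowest on their loci, and all lie below the median of all genes.

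Neighbours on the 2 keratin loci differed in their change. On chromosome 12 the tested genes run from KRT80 through KRT7, KRT86, KRT81, KRT79, KRT78 and KRT8 to KRT18. KRT80 and KRT7, next to each other among the tested genes, differed in sign on TPM (0.28 and -1.31), and so did KRT8 and KRT18 (0.53 and -0.64). After rescaling neither pair differed in sign, only in size. The rescaled values were -0.48 for KRT80 and -2.05 for KRT7, and -0.22 (not passing) for KRT8 and -1.04 for KRT18. On chromosome 17, KRT15, at 0.29 and not passing the test, lies between KRT34 at -0.89 and KRT14 at -1.10. After rescaling all of these were lower, KRT15 at -0.45, KRT34 at -1.55 and KRT14 at -1.81.

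The type I share of the keratin transcripts was lower in shGLUD1, and KRT17 was the keratin whose share fell most. Among other type I keratins, KRT10 and KRT15 held larger shares in shGLUD1, and KRT14, KRT16 and KRT34 smaller ones. The type II genes also summed to less TPM in shGLUD1, at 227 and 232, against 278 and 277 in shNT. Over all keratin genes of the table, summed TPM were 341 and 344 in shGLUD1, against 582 and 603 in shNT. Type I keratins held 33.3% and 32.6% of that sum in shGLUD1, against 52.3% and 54.0% in shNT. KRT17 held 13.6% and 13.0% in shGLUD1, against 35.7% and 38.3% in shNT. KRT80 held 26.6% and 28.8% in shGLUD1, against 12.9% and 13.4% in shNT, and KRT8 held 18.8% and 18.6% in shGLUD1, against 7.13% and 7.76% in shNT. KRT80 was thus the leading keratin in shGLUD1 and KRT17 in shNT. KRT7 held 12.6% and 11.6% in shGLUD1, against 18.96% and 16.1% in shNT. These shares of deposited TPM are the same under any single factor per library, though not under quantile normalization, and are descriptions of 2 libraries against 2.

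**Figure D4:**
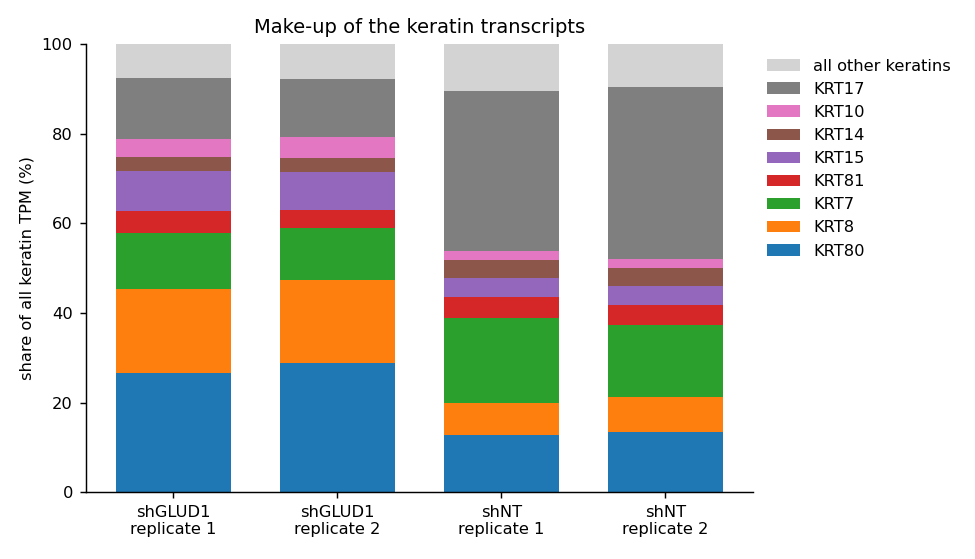
Share of the summed TPM of all keratin genes held by each named keratin, in percent, for the 2 shGLUD1 libraries (left) and the 2 shNT libraries (right). KRT17 is the widest band in shNT (35.7% and 38.3%) and narrow in shGLUD1 (13.6% and 13.0%), where KRT80 (26.6% and 28.8%) and KRT8 (18.8% and 18.6%) take the widest bands.

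Other cytoplasmic intermediate filament genes were low. Of 5 above the filter, 3 rose and none fell, and 1 was higher after rescaling (list median 0.82, rescaled 0.14), near the shares of all genes (56.7% higher, and 23.2% after rescaling). In this list and several that follow, some genes reached the filter only through shGLUD1, where they were higher, so the counts describe the genes that passed and support nothing further. Among those named these are NES, DES, ITGA6, NUP153, CLDN4 and ZEB1. NES, nestin, a filament protein that assembles with vimentin, was at 6.01 and 6.68 TPM in shGLUD1, against 0.95 and 0.86 TPM in shNT (log2 fold change 1.95, SE 0.24, limma adjusted p = 6.7e-05; rescaled 1.43). DES, the muscle filament desmin, and SYNC, syncoilin, rose on TPM (0.89 and 0.82) but did not pass after rescaling (0.48 and 0.14).

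Among genes for desmosomes and for linkers of filaments to membranes and other fibres, 11 were tested. Of these 9 rose and 1 fell, beside 56.7% of all genes higher and 7.77% lower, and after rescaling 6 were higher and 2 lower, beside 23.2% and 27.9% (list median 1.26, rescaled 0.63). In 2 of the 11 the shNT mean was under the filter. ITGA6, an integrin subunit of hemidesmosomes, was at 5.41 and 7.88 TPM in shGLUD1, against 0.73 and 1.01 TPM in shNT (log2 fold change 2.02, rescaled 1.50). MACF1, a linker of actin and microtubules, rose by 1.95 (rescaled 1.26), PKP4, a plakophilin of cell junctions, by 1.62 (rescaled 1.05) and TCHP, a keratin-binding protein, by 1.44 (rescaled 0.78). The 1 that fell was PKP3, a desmosomal plakophilin, named after its values were seen (-0.53, rescaled -1.23). Desmoplakin (DSP), which ties keratins to desmosomes, was listed at 0 in all 4 libraries. JUP, plakoglobin, was at 0.13 and 0.03 TPM in shGLUD1 and at 0.12 and 0.21 TPM in shNT. Both DSP and JUP were under the filter and were named after their values were seen.

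Nuclear envelope partners of the lamins rose on TPM and were divided after rescaling. Of 20 tested, 16 rose and none fell, and after rescaling 7 were higher and 6 lower (list median 0.79, rescaled 0.27). In 4 of the 20 the shNT mean was under the filter. NRM, nurim, was at 20.9 and 21.5 TPM in shGLUD1, against 6.33 and 6.35 TPM in shNT (log2 fold change 1.60, rescaled 0.90). TMPO, which encodes the lamina-associated polypeptide 2 proteins, rose by 1.49 (rescaled 0.85), TOR1AIP2, a membrane partner of torsin, by 1.37 (rescaled 0.81) and NUP153, a nuclear pore protein that binds lamins, by 1.33 (rescaled 0.98). Among 5 enzymes that process the lamin tail, 4 rose and none fell, with 1 higher and 1 lower after rescaling (list median 0.72, rescaled 0.03). ICMT, the methyltransferase of the farnesylated tail, rose by 1.45 (rescaled 0.76). FNTB and FNTA, subunits of farnesyltransferase, and ZMPSTE24, the protease that matures prelamin A, rose on TPM (1.03, 0.50 and 0.72), and none of these 3 passed after rescaling. Counts in both lists stood beside 56.7% of all genes higher on TPM, and 23.2% higher and 27.9% lower after rescaling.

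Genes of the epithelial state were mostly near 0 in both groups. Of 28 genes, 22 were under the filter. CDH1, E-cadherin, was at 0.01 and 0 TPM in shGLUD1 and at 0.03 and 0 TPM in shNT, and EPCAM, an epithelial adhesion molecule, at 0.15 and 0.18 TPM in shGLUD1 and at 0.24 and 0.46 TPM in shNT; both were named after their values were seen. Of the 6 tested, 3 rose and none fell, with 2 higher and 2 lower after rescaling. Among all genes 56.7% were higher on TPM, and 23.2% higher and 27.9% lower after rescaling. Among those that rose were TJP1, a scaffold of tight junctions (log2 fold change 1.58, rescaled 1.04), and CLDN4, a claudin (0.83, rescaled 0.46, not passing). The keratins of these cells therefore stood beside few other epithelial transcripts, in either group.

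Of 22 tested genes of the mesenchymal state, 18 rose and 3 fell, and after rescaling 10 were higher and 4 lower (list median 1.00, rescaled 0.39). The shares of all genes were 56.7% higher and 7.77% lower on TPM, and 23.2% higher and 27.9% lower after rescaling. In 2 of the 22 the shNT mean was under the filter, and in 1, SNAI1, the shGLUD1 mean. AXL, a receptor tyrosine kinase, was at 135 and 160 TPM in shGLUD1, against 39.4 and 34.6 TPM in shNT (log2 fold change 1.97, SE 0.13, limma adjusted p = 2.2e-06; rescaled 1.22). ACTA2, smooth muscle actin, rose by 1.75 (rescaled 1.08), and ZEB1, a repressor of epithelial genes, was at 3.07 and 4.68 TPM in shGLUD1, against 0.27 and 0.62 TPM in shNT (1.74, rescaled 1.33). The list did not move as one: TAGLN, an actin-binding protein of smooth muscle, was at 2.63 and 3.06 TPM in shGLUD1, against 19.3 and 13.9 TPM in shNT (-2.18, rescaled -2.81). SNAI1, another repressor of epithelial genes, and S100A4, a calcium-binding protein, also fell (-0.88 and -0.39, rescaled -1.30 and -1.15) and were named after their values were seen. Fibroblast markers summed to 62.7 and 64.5 TPM in shGLUD1 and to 29.6 and 28.4 TPM in shNT. Most of this was COL1A2, and COL3A1 was at most 0.03 TPM. Of 4 tested, 2 rose and none fell, and after rescaling 1 was higher and none lower (list median 0.57, rescaled -0.05). The part of these markers in the vimentin result was not tested.

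**Figure D5:**
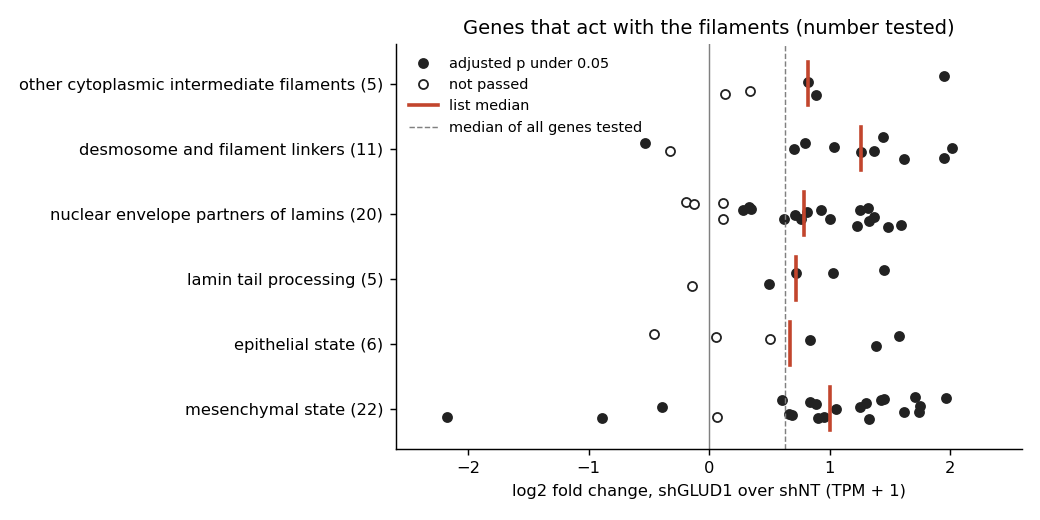
Log2 fold change of shGLUD1 over shNT for the tested genes of 6 lists; filled points passed at an adjusted p under 0.05 on TPM, red bars are list medians and the dashed line is the median of all genes tested, 0.63. The linker (1.26) and mesenchymal (1.00) medians lie right of that line, the lamin partners, tail enzymes and epithelial genes lie near it, and TAGLN stands alone at -2.18.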

How the data were processed

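Per the labels' protocols, libraries were made with a TruSeq V2 kit (1 µg RNA input). The authors deposited 1 table of TPM with a column per library; each column summed to 1000000 within rounding. Bowtie 0.12.2 and 2 builds (hg38, mm8) appear, with no role, per the submitters' processing notes. The sources used here give no quantifier, annotation, strand setting or handling of reads that fit several genes.

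Values were analysed as log2(TPM + 1) over the 12524 of 57820 genes whose mean reached 1 TPM, by limma 3.58.1 in R 4.3.3 (trended eBayes, 2 groups, two-sided, Benjamini-Hochberg adjusted p under 0.05 over all genes). The prior shared across genes had a median of 8.8 degrees of freedom. The fit was also run on simulated data in which few genes changed. That setting differs from these data, where most genes stood higher in shGLUD1, so it does not test the calls made here. Median-ratio factors (log2) were 0.28 and 0.49 for shGLUD1 and -0.39 and -0.38 for shNT. Ratios used TPM without a pseudocount and an exact permutation test (scipy 1.17.1, Python 3.11.15). Gene positions and 50-base words came from GENCODE 29 on GRCh38, matched by gene identifier, and promoters from RefSeq. Protein sequences were not used here.

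The 9 members and all lists were chosen with earlier results of these data known. Named were all members and tested keratins, GLUD1 and, of each other list, up to 4 passing genes with the largest change; others are said to have been named after their values were seen, apart from markers and overlapping genes. A gene that this rule named is not reported here. Alternatives were a pseudocount of 0.1 TPM, no filter, a mean of at least 5 TPM, both rescalings, an untrended prior, a block by replicate number, each library left out once and, added after seeing the data, rescaling without shGLUD1 replicate 2.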

Additional observations from a re-analysis of the deposited data

How the results depend on the processing

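KRT7, VIM, LMNB1 and LMNB2 kept their direction and their call under all 12 alternatives, with log2 fold changes from -2.05 to -1.21, 1.02 to 2.04, 1.86 to 3.10 and 0.79 to 1.64. KRT8 reversed after median-ratio rescaling (-0.22) and after rescaling without shGLUD1 replicate 2 (-0.10), and lost its call under quantile normalization (0.10) and without shNT replicate 1 (0.45, limma adjusted p = 0.0506). KRT80 reversed under rescaling (-0.48, or -0.43 without shGLUD1 replicate 2) and quantile normalization (-0.0596), and lost its call under 7 others. KRT18 lost its call with a pseudocount of 0.1 TPM (-1.10, limma adjusted p = 0.0547). KRT10 reversed at -0.45, -0.44 and -0.45 and KRT15 at -0.45, -0.29 and -0.29 under rescaling, quantile normalization and rescaling without shGLUD1 replicate 2.

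Members higher numbered 3 after rescaling, with or without shGLUD1 replicate 2, and 4 to 6 with 1 library left out; members lower numbered 1 with a pseudocount of 0.1 TPM or a mean of at least 5 TPM, where KRT18 is not tested, 3 after rescaling without shGLUD1 replicate 2, and 1 to 2 with 1 library left out. All genes numbered 4676 higher at a mean of at least 5 TPM, where fewer are tested, 2910 higher and 3491 lower after rescaling, 2938 and 2764 under quantile normalization, 1707 and 2665 after rescaling without shGLUD1 replicate 2, and 5530 to 7229 higher and 673 to 938 lower with 1 library left out. The other lists together had 60 higher and 13 lower, 32 and 28 after rescaling, 35 and 25 under quantile normalization, 18 and 21 after rescaling without shGLUD1 replicate 2, and 46 to 60 and 8 to 13 with 1 library left out. With a pseudocount of 1 TPM the log2 difference was 1.17 for KRT8 to KRT18 and 1.80 for LMNB1 to LMNA. With 1 library left out the ratio differences ranged from 1.52 to 1.97 (KRT8 to KRT18), -2.20 to -1.87 (keratins to VIM), 2.13 to 2.67 (LMNB1 to LMNA), 0.65 to 0.93 (LMNB2 to LMNA) and 1.20 to 2.02 (LMNB1 to LMNB2). Where a library left an arm with 1 sample, that sample was assumed to vary like the other group; causes of these moves were not tested beyond those named.

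The labels do not say that a replicate number marks a shared culture, and deviations of same-numbered libraries correlated at 0.039. With the replicate block 5 members were higher and 2 lower, KRT80 losing its call (0.28, limma adjusted p = 0.0677), beside 7395 genes higher and 1061 lower. Depth is unknown, so no detection floor can be given for KRT19 or KRT18.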
